A study of Mus musculus with 24 samples.

Results

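The genes described here encode 10 transcription factors of the B-lymphocyte lineage: Pax5, Ebf1, Ikzf1, Ikzf3, Foxo1, Irf4, Irf8, Spi1, Bach2 and Lef1. They were chosen by name, as 10 of the 22367 protein-coding genes of the GENCODE vM1 annotation, and each was taken as its gene body with 20 kb on each side (its window) on the mouse build mm9. Merging the overlapping CTCF and Rad21 peaks of 16 deposited lists gave 275 sites in these windows, out of 90337 mouse sites in all. The windows together span 1755 kb on 6 chromosomes.

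The series measured CTCF and Rad21 binding by chromatin immunoprecipitation and sequencing (ChIP-seq) in pro-B cell lines transformed with v-Abl, and its title concerns V(D)J recombination. Every line is RAG2 deficient with an Eμ-Bcl2 transgene, and all the cells received the Abl kinase inhibitor STI-571 at 3 µM for 4 days. The CTCF antibody was used on 3 libraries of the parental line without the auxin IAA and on 3 libraries of a CTCF-degron line with IAA, and the Rad21 antibody was used on 3 libraries of each of these as well. The Rad21 antibody was further used on a Rad21-degron line, with 2 libraries without IAA and 2 with IAA. A degron is a tag that sends the protein carrying it to degradation once IAA is present. IAA was given at 500 µM for 6 h before STI-571 and then throughout the 4 days. In the CTCF comparison the line and the IAA change together and cannot be told apart, while in the Rad21-degron line IAA alone differs. Short codes in the peak names differ between replicates of the CTCF-degron groups, and what they stand for is not given in the labels. The labels do not say whether replicates are separate cultures, so p-values measure only the spread between these libraries. Peak lists hold no expression, and the pro-B identity of the cells could not be checked against marker genes.

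Cohesin is a ring-shaped complex, of which Rad21 is the subunit that closes the ring. It moves along chromatin and forms loops, and it accumulates where CTCF is bound to its motif in a given orientation. Loops of this kind can bring distal enhancers close to a gene's start site or keep them apart from it.

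The lists differed much in length, from 1383 to 67809 mouse peaks, and no read depth is known for any library. Replicate 1 of both Rad21 groups of the parental and CTCF-degron lines stands apart: it has no human spike-in, unlike the other 8 Rad21 libraries, and has the longest list of its group. Of the 275 sites, 123 (44.7%) appear in these replicate 1 lists alone, against 18109 of the 90337 mouse sites. Of those 123, Ebf1 holds 63 and Foxo1 holds 29. A further point on resolution is that merged sites can be wide, with a median of 346 bp, 26 sites over 2 kb and a maximum of 8494 bp.

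CTCF sites were defined as sites with a peak in all 3 parental CTCF lists. Of the 275 sites, 57 met this (20.7%, against 37.2% of all mouse sites outside chromosome 12). Another 50 (18.2%, against 29.5%) had a peak in 1 or 2 of the parental CTCF lists. The remaining 168 (61.1%, against 33.3%) had none, among them all 123 sites of the replicate 1 Rad21 lists. By position, 37 sites (13.5%, against 19.8%) lay within 1 kb of an annotated transcript start and 238 (86.5%, against 80.2%) were distal. Of the 57 CTCF sites, 17 were at a start and 40 were distal. Over all mouse CTCF sites outside chromosome 12, 6728 were at a start and 25234 were distal. Rad21 had a peak in every parental list at 46 of the 57 CTCF sites, in 1 or 2 lists at 10, and in none at 1, the Lef1 +117.7 kb site (distances are from the gene's start to the centre of the site, negative upstream). Over all mouse CTCF sites, Rad21 had a peak in every parental list at 20450 of 33429. Site density had a median of 18.1 per 100 kb of window over the 10 genes, from 5.16 at Bach2 to 37.0 at Foxo1. The same median was 13.7 over 21 genes from a list of 22 other regulator genes of blood cells, and 5.66 over 21663 protein-coding genes. Without the sites of the replicate 1 Rad21 lists alone these medians were 11.2, 10.5 and 4.72, and the highest density was 18.2, at Irf8. For CTCF sites alone the 3 medians were 3.79, 3.44 and 2.30 per 100 kb. These values are given as a description, and windows of different genes can overlap.

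A core CTCF motif of 12 bases (CCA, any 2 bases, AG, any 2 bases, GGC), searched on both strands within 300 bp at the centre of the CTCF peak, was present at 23 of the 57 CTCF sites (40.4%). In windows of the same length 5 kb away it was present at 1 of 57 (1.75%). Over all mouse CTCF sites outside chromosome 12 the shares were 39.1% and 2.97%. The stretches that follow are from mm9, read 5′ to 3′ on the strand of the motif, with the motif in capitals. The first 3 are shown because they lie within 9 kb of each other upstream of Foxo1, point the same way, and ended differently after CTCF degradation. The fourth is the CTCF peak with the highest fold enrichment of the windows in 2 of 3 parental lists. The last 4 are sites at which all 3 degron lists had no CTCF peak.
Foxo1 -14.2 kb, chr3:52057971-52058030, plus strand: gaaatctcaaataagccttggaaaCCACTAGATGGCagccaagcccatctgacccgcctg
Foxo1 -10.5 kb, chr3:52061734-52061793, plus strand: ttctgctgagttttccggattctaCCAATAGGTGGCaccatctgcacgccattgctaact
Foxo1 -5.2 kb, chr3:52066482-52066541, plus strand: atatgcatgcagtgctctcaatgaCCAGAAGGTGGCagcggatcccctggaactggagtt
Ikzf1 +103.7 kb, chr11:11688573-11688632, minus strand: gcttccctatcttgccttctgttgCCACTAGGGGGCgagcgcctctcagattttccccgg
Pax5 +146.8 kb, chr4:44577596-44577655, plus strand: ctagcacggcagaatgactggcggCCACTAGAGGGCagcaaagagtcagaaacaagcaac
Bach2 +348.0 kb, chr4:32673743-32673802, plus strand: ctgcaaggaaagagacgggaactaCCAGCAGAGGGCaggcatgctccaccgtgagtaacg
Spi1 +28.1 kb, chr2:90950756-90950815, plus strand: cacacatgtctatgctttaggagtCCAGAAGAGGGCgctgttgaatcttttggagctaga
Lef1 +102.0 kb, chr3:130915286-130915345, plus strand: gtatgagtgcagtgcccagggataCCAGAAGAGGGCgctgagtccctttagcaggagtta

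The Spi1 and Lef1 stretches carry the same 12 bases, CCAGAAGAGGGC, and this word made up 14 of the 31 motif matches found at sites of the windows. The motif was present at 18 of the 36 CTCF sites that later had no CTCF peak (50.0%, against 44.3% over all mouse sites of that fate), at 3 of 13 that kept one in some lists (23.1%, against 29.7%), and at 2 of 8 that kept one in every list (against 23.7%). A missing match says only that these letters are not in that stretch.

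After CTCF degradation fewer CTCF peaks were listed in the windows of these genes. The parental lists had 117, 95 and 88 CTCF peaks there (100 ± 15.1, SD, n = 3). The CTCF-degron lists with IAA had 42, 36 and 13 (30.3 ± 15.3, SD, n = 3). The groups did not overlap, and the mean log2 difference was -1.88, or 3.68-fold fewer peaks (p = 0.1 by an exact permutation test, two-sided, which with 3 libraries a group can give nothing smaller). Because the test cannot pass 0.05, neither this nor any other comparison here is called a change. As a share of all mouse peaks of the same list, the windows held 0.223, 0.200 and 0.189% in the parental lists and 0.271, 0.229 and 0.158% in the degron lists. These shares overlapped, with a log2 difference of 0.07 (exact permutation p = 0.8), so the lower number in the windows went with shorter lists as a whole.

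Rad21 was tested in the same lines. The parental lists had 223, 141 and 125 Rad21 peaks in the windows (163 ± 52.6, SD, n = 3), and the CTCF-degron lists had 158, 88 and 54 (100 ± 53.0, SD, n = 3). The groups overlapped, with a log2 difference of -0.80 (exact permutation p = 0.3). As a share of all mouse Rad21 peaks, the windows held 0.329, 0.321 and 0.421% in the parental lists and 0.449, 0.339 and 0.344% in the degron lists, a log2 difference of 0.08 with overlap (exact permutation p = 0.5). Peaks on CTCF sites numbered 54, 57 and 53 in the parental lists and 36, 31 and 23 in the degron lists, a log2 difference of -0.89 without overlap (exact permutation p = 0.1). Those elsewhere in the windows numbered 169, 84 and 72 against 122, 57 and 31, a log2 difference of -0.75 with overlap (exact permutation p = 0.4). The share of window peaks on CTCF sites was 35.7 ± 9.98% in the parental and 33.5 ± 10.0% in the degron lists (SD, n = 3 each; difference -2.15 percentage points, exact permutation p = 0.8). That difference depended on the setting. It was above 0 without parental replicate 2 (0.227 points), parental replicate 3 (1.21) or degron replicate 1 (3.23), and it was -10.4 points among peaks with a fold enrichment of 4 or more and -44.1 points with lists shortened to the shortest (exact permutation p = 0.1 for each of the last 2).

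In every control list the share of Rad21 peaks lying on CTCF sites was lower in the windows than in the rest of the mouse genome, a comparison chosen after the values were seen. In the parental lists 24.2, 40.4 and 42.4% of window peaks were on CTCF sites, against 47.0, 63.9 and 72.5% elsewhere. In the Rad21-degron lists without IAA the shares were 44.1 and 55.7%, against 65.0 and 75.1% elsewhere. The difference was -22.7, -23.5 and -30.1 percentage points in the parental lists, -20.8 and -19.4 in the Rad21-degron lists without IAA, and -15.5, -10.4 and -7.94 in the CTCF-degron lists. An exact sign-flip test gave p = 0.25 over the 3 parental lists and p = 0.0625 over the 5 lists without IAA, the smallest values possible. Because the comparison was chosen after the values were seen, they are given as a description.

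**Figure D1:**
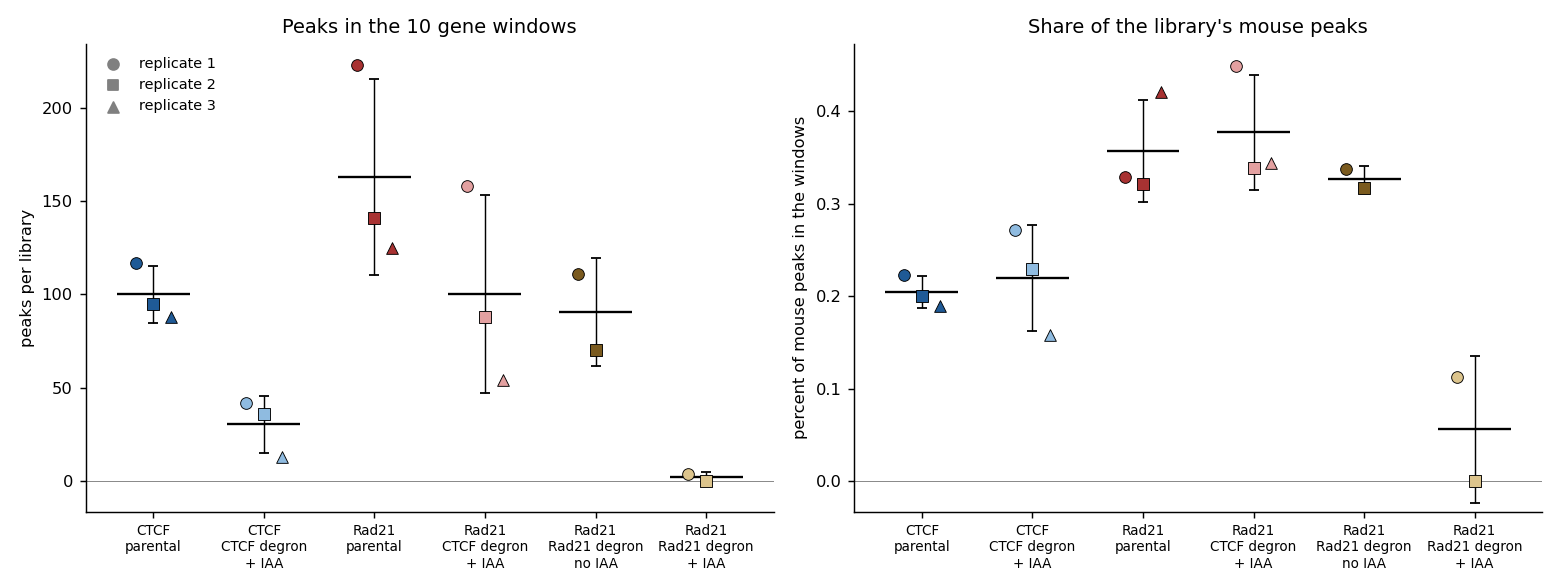
Left, number of peaks in the windows of the 10 genes per library; right, the same as a percent of all mouse peaks of that library. Each marker is a library, bars are group means and whiskers 1 SD. CTCF peaks numbered 88 to 117 in the parental and 13 to 42 in the CTCF-degron lists, while the shares on the right overlapped.

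Site by site, 36 of the 57 CTCF sites (63.2%) had no CTCF peak in any degron list, 13 had one in some and 8 (14.0%) had one in all 3. Over all mouse CTCF sites 69.7% had no peak in any degron list and 13.6% had one in every list, so the windows were near the background, meaning the share over all mouse sites. At a transcript start 8 of 17 sites lost CTCF (47.1%, background 43.6%), and of the distal sites 28 of 40 did (70.0%, background 76.7%).

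Of 71 sites with Rad21 in every parental list, 19 (26.8%) had no Rad21 peak in any CTCF-degron list, 20 had one in some and 32 (45.1%) had one in every list. Over all mouse sites 41.4% had none and 35.7% had one in every list. With replicates 2 and 3 alone, the windows gave 26 lost, 13 in part and 32 kept of 71 on the same sites. Without parental replicate 3 the number lost was 32. At the 46 of these that were CTCF sites, 15 lost Rad21 (32.6%, background 47.8%) and 22 kept it in every list (47.8%, background 32.3%). Where CTCF was lost, Rad21 was lost at 15 of 25 sites (60.0%, background 76.3%), and where CTCF was kept, Rad21 was kept at 8 of 8 (background 93.4%). The 7 Rad21 sites without any parental CTCF peak gave 2 lost, 5 in part and 0 kept (background 14.3% lost and 35.2% kept). Whether these shares differ from the background was not tested.

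At the genes' own starts, 16 sites had Rad21 in every parental list, at least 1 at each of the 10 genes, and after CTCF degradation 13 kept it in every list, 3 in some and 0 lost it. With replicates 2 and 3 alone, 13 kept it and 1 lost it. Several own-start sites are wide, up to 8494 bp (Pax5 +8.7 kb) and 8076 bp (Lef1), against a median of 346 bp over all window sites. A peak anywhere in a merged site counts as kept, so a wide site is kept more easily. All 16 were wider than that median. The narrowest, Pax5 +0.5 kb (1071 bp), kept Rad21 in some lists, and Spi1 +0.9 kb (1429 bp) kept it in every list. How far width bears on these counts was not tested. CTCF was lost at 5 of the 13 own-start sites that had it, and at those 5 Rad21 was kept in every list at 2 and in some lists at 3. At starts of other genes that fall in the windows, 3 of 5 Rad21 sites were lost. Of 50 distal Rad21 sites, 16 were lost, 17 were kept in some lists and 17 in all. Over all mouse Rad21 sites, 16.5% at starts and 50.3% at distal positions were lost, and 61.8% and 26.5% were kept in every list. Of the 15 sites that lost both proteins, 12 were distal, as were 28 of all 36 sites of the windows that lost CTCF. The distal share of sites that lost both was not counted over all mouse sites.

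**Figure D2:**
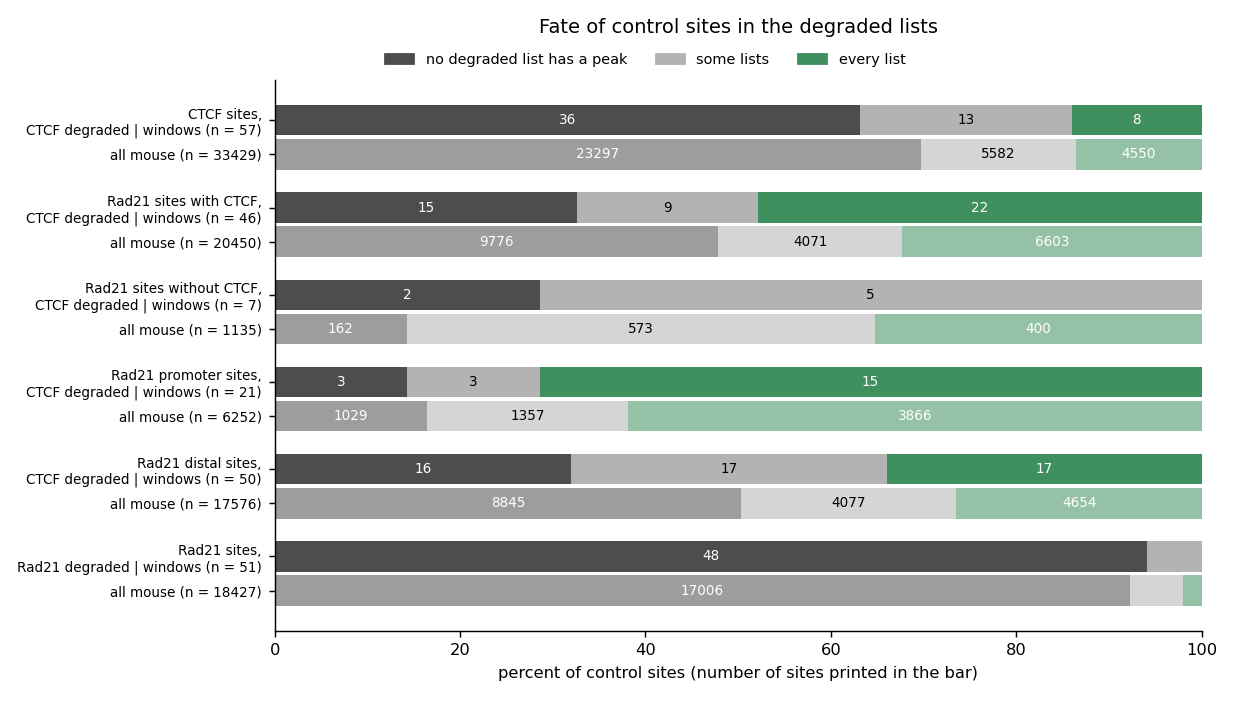
Share of control sites (a peak in every control list) with a peak in no, some or every degraded list, for the windows of the 10 genes and for all mouse sites; the number of sites is printed in each bar except in the narrowest ones. Of the Rad21 sites at starts, 15 of 21 kept a peak in every CTCF-degron list, against 17 of 50 distal sites. Sites differ in width, and a peak anywhere in a site counts.

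Ebf1, which specifies the B lineage together with its partner factors, had 100 of the 275 sites in its window of 431 kb, of which 7 were CTCF sites. The highest CTCF values were at the ends of the gene. The +390.7 kb site, at the 3′ end, had authors' fold enrichments (the height of a peak over background, used here only to describe and rank peaks in a list) of 10.8, 10.7 and 13.6 for CTCF in parental replicates 1 to 3. After CTCF degradation it had 4.10 and 5.62 in replicates 1 and 2 and no peak in replicate 3. Rad21 there was 18.7, 17.6 and 10.0 in the parental and 5.79, 6.04 and 4.51 in the degron lists. The -5.0 kb site had CTCF at 9.68, 9.03 and 11.3, and in the degron lists 4.68, 6.87 and no peak. Rad21 at that site was 12.8, 16.0 and 10.9 against 6.23, 6.59 and 5.33.

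A stretch of Ebf1 from 250 to 340 kb after the start, mostly intron and with an annotated transcript start inside it, held 41 sites and 6 of the gene's 15 parental Rad21 sites. After CTCF degradation, Rad21 was kept at 4 of these 6 and lost at 1, while of the other 9 it was kept at 3 and lost at 3. Over all mouse Rad21 sites 35.7% were kept and 41.4% lost. With replicates 2 and 3 alone, 7 of the gene's 15 sites were kept and 5 lost. Whether the stretch differs from the rest was not tested. The stretch was chosen after its values were seen. CTCF had a peak in at least 1 degron list at 11 sites of the stretch, of which 2 had one in every parental list. Those at +252.2, +266.9 and +294.3 kb had no parental CTCF peak, and the others had one in 1 or 2 parental lists. The +333.4 kb site stood out in rank. Its Rad21 values were 6.47, 7.11 and 5.32 in the parental lists, ranks 36, 23 and 23 among the window sites of those lists. In the CTCF-degron lists they were 12.5, 8.79 and 6.07, ranks 3, 4 and 4. In the Rad21-degron line without IAA they were 7.96 and 6.64, ranks 9 and 10, and with IAA there was no peak. CTCF at this site was 4.52, 4.01 and 4.25 in the parental and 6.27, 4.68 and 4.98 in the degron lists. A lower parental CTCF peak inside it, chr11:44761495-44762151 (3.77, 3.59 and 4.08), had no CTCF peak in any degron list. Ranks from lists of different length show no change, and the degron lists are shorter. The start of Ebf1 itself had low CTCF and Rad21 values, between 3.61 and 4.67 in the parental and CTCF-degron lists, with a CTCF peak in all 6. On the narrower parental CTCF peak within that site, 2 of 3 degron lists had a peak.

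**Figure D3:**
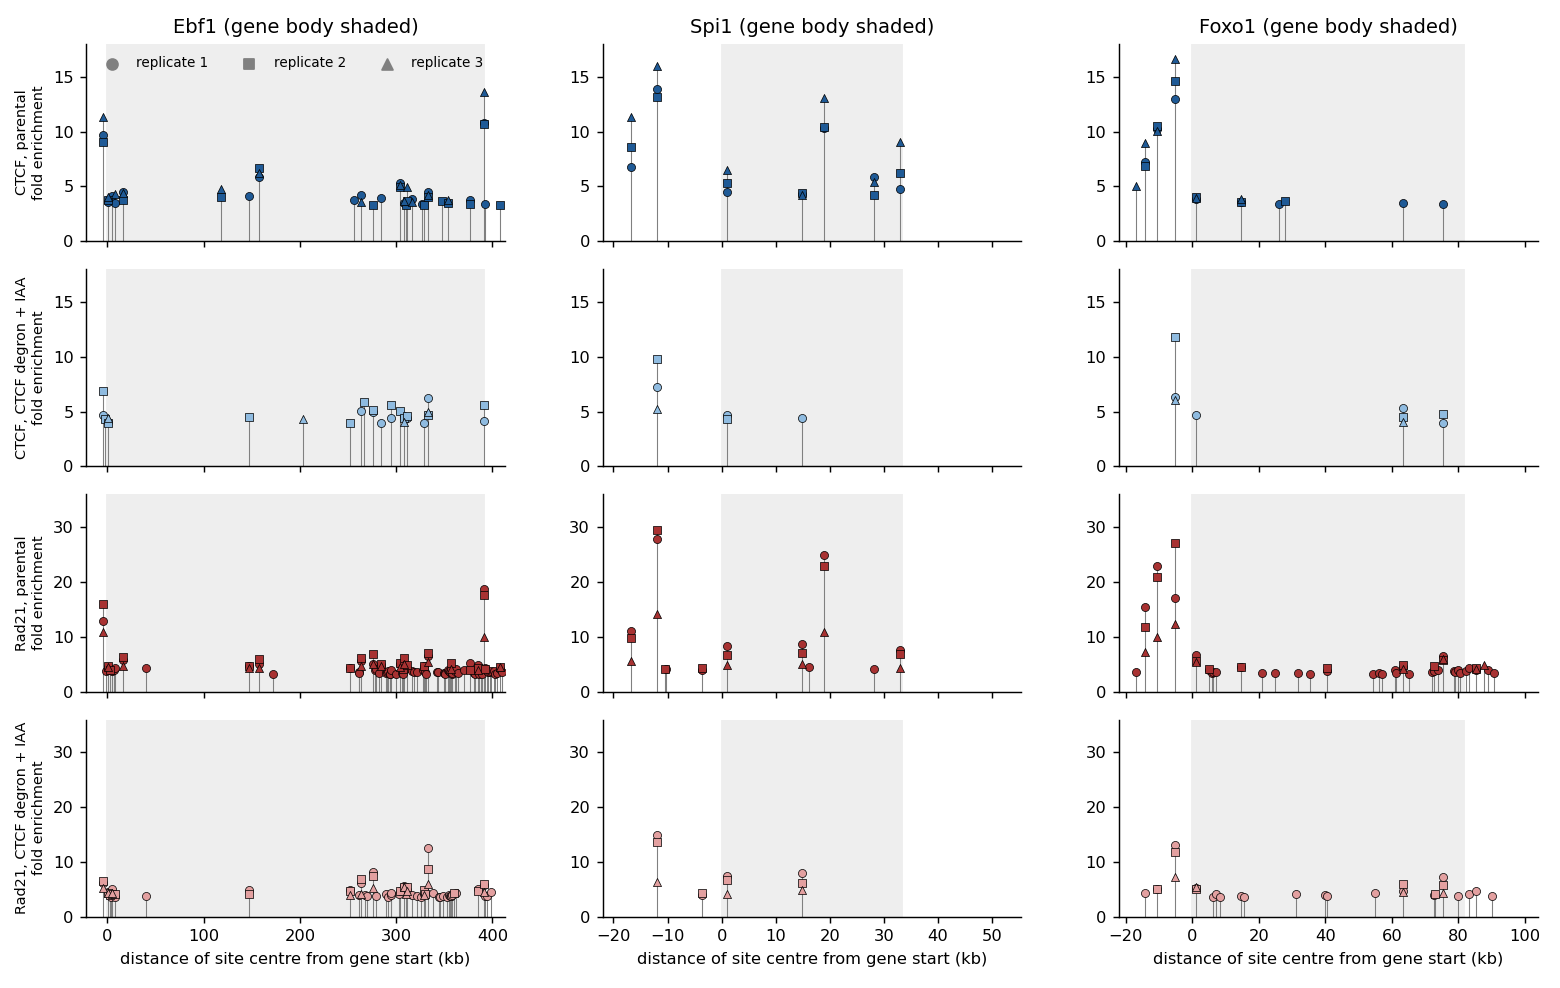
Authors' fold enrichment of each peak against the distance of its site's centre from the gene start (kb) at Ebf1, Spi1 and Foxo1, for CTCF and Rad21 in the parental and CTCF-degron lists. Markers are replicates, grey lines reach the highest replicate and the shaded part is the gene body. The Spi1 +19.0 kb site has no marker in either degron row, and the Ebf1 +333.4 kb site has the highest Rad21 values of the Ebf1 window in the CTCF-degron row.

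Pax5, which commits cells to the B lineage, had 18 sites in 220 kb, of which 10 were CTCF sites. CTCF was lost at 8 of the 10 (background 69.7%), kept in some lists at 1 and in all at 1. The kept site lies in an intron at +38.3 kb (chr4:44683672-44688419) and spans 2 parental CTCF peaks. At the first, chr4:44683715-44684658, CTCF was 4.99, 5.53 and 7.28 in the parental and 7.25, 10.6 and 7.07 in the degron lists. At the second, chr4:44685108-44685888, it was 10.7, 9.93 and 12.1, against 3.94, 4.40 and no peak. Rad21 on the second peak was 8.87, 14.6 and 8.53 in the parental and 5.79, 5.45 and 4.41 in the degron lists. Within each parental CTCF list the second peak was the higher, and within degron replicates 1 and 2 the first was. The next intron sites, at +41.8 and +43.0 kb, had CTCF in every parental list, at 3.90 to 7.81, and no CTCF or Rad21 peak in any degron list. The +134.0 kb site had CTCF at 8.38, 6.01 and 7.89 and also lost both proteins. Of the 3 sites at Pax5 starts, the one at +2.1 kb lost CTCF in all 3 lists yet had Rad21 at 4.73, 5.53 and 4.70 there (parental 7.98, 7.79 and 4.81).

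Ikzf1 encodes Ikaros, a zinc-finger factor needed for lymphoid development, and Ikzf3 encodes its relative Aiolos. Ikzf1 had 22 sites, 4 of them CTCF sites. Its +103.7 kb site, downstream of the gene and inside Fignl1, had CTCF at 15.1, 14.0 and 16.7 in the parental and 5.01, 9.06 and 4.81 in the degron lists. Rad21 was 33.7, 26.1 and 12.1 against 11.2, 9.46 and 6.29. The intron site at +57.6 kb had CTCF at 8.65, 8.85 and 10.6, with a degron peak in replicate 2 alone (4.70), and Rad21 at 18.2, 17.9 and 9.08 against 4.57, 4.11 and 4.04. Both thus kept Rad21 in every list. Near the Ikzf1 start, the +2.1 kb site lost CTCF and had Rad21 in degron replicate 1 alone (3.76, against 6.10, 6.58 and 4.78 in the parental lists), whereas the +5.6 kb site kept Rad21 in all 3.

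Ikzf3 had 23 sites, of which 7 were CTCF sites, and 5 of the 7 lost CTCF (background 69.7%). The kept one, +87.6 kb and downstream of the gene, had CTCF at 11.1, 9.21 and 12.1 in the parental and 6.25, 6.65 and 6.28 in the degron lists. Rad21 was 12.2, 12.4 and 10.6 against 7.85, 8.11 and 5.77. The Ikzf3 start lost CTCF in all 3 lists and had Rad21 at 5.64 and 4.89 in replicates 1 and 2 and no peak in replicate 3. An intron site without any CTCF peak, at +48.4 kb, had Rad21 at 4.16, 5.53 and 4.10 in the parental lists and 4.09 and 4.36 in degron replicates 1 and 2. It was the 1 site of the Ikzf3 window with Rad21 in every parental list and CTCF in none.

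Foxo1 encodes a forkhead factor that acts downstream of PI3K signalling and promotes Rag gene expression. It had 45 sites, the highest density of the 10 genes. However, 29 of them were in the replicate 1 Rad21 lists alone, and without such sites its density was 13.1 per 100 kb, below those of Irf8, Ikzf3 and Irf4. Its 3 upstream CTCF sites, whose motif stretches are printed above, had 7.25, 6.90 and 8.94 (-14.2 kb), 10.2, 10.5 and 10.1 (-10.5 kb) and 13.0, 14.6 and 16.6 (-5.2 kb) for CTCF in the parental lists. After CTCF degradation the first pair had no CTCF peak in any list, and the -5.2 kb site had 6.34, 11.8 and 6.09. Those values lie on its higher parental CTCF peak, chr3:52066209-52066961. A second parental CTCF peak in that site, chr3:52065501-52065891 (5.04, 4.44 and 4.16), had no CTCF or Rad21 peak in any degron list. Rad21 at -14.2 kb was 15.4, 11.7 and 7.21 in the parental lists and 4.26, no peak and no peak in the degron lists. At -10.5 kb it was 23.0, 21.0 and 10.0 against 5.15, 5.00 and no peak. At -5.2 kb it was 17.0, 27.1 and 12.3 against 13.1, 11.8 and 7.26. Inside the gene, the intron sites at +63.3 and +75.5 kb had CTCF in parental replicate 1 alone and Rad21 in all 3 degron lists. The CTCF lists of the degron line had peaks at both, in all 3 at +63.3 kb (5.36, 4.52 and 4.06) and in replicates 1 and 2 at +75.5 kb (3.94 and 4.79).

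Spi1 encodes PU.1, an ETS factor of myeloid and B cells, and had 11 sites, 7 of them CTCF sites. The -11.9 kb site, at the start of Slc39a13, had CTCF at 13.9, 13.2 and 16.0 in the parental and 7.25, 9.80 and 5.23 in the degron lists, and Rad21 at 27.9, 29.5 and 14.1 against 15.0, 13.7 and 6.38. It was first or second in Rad21 rank in all 6 lists. The +19.0 kb intron site, chosen after its values were seen, had CTCF at 10.3, 10.4 and 13.1 and Rad21 at 24.9, 22.9 and 10.8 in the parental lists. In the CTCF-degron lists it had no peak of either protein. Rad21 was 11.5 and 7.81 there in the Rad21-degron line without IAA. The Spi1 start (+0.9 kb) kept Rad21 at 7.43, 6.67 and 4.18, with CTCF in replicates 1 and 2 alone.

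Irf4 and Irf8 encode interferon regulatory factors that pair with PU.1 at composite DNA elements. Neither window had a CTCF site kept in every degron list. Irf4 had 2 CTCF sites and no CTCF peak anywhere in its window in the 3 degron lists. Its start site had Rad21 at 7.33, 6.50 and 5.12 in the parental and 5.55, 5.22 and 4.14 in the degron lists, with CTCF in parental replicates 1 and 3 alone. Its +12.3 kb site lost CTCF and kept Rad21 at 4.46, 4.18 and 4.58. At the Irf8 start, CTCF was 3.77, 3.47 and 3.81, against 4.82, 5.86 and no peak, and Rad21 was 6.88, 6.30 and 5.64, against 5.07, 4.97 and 4.19. All 5 parental Rad21 sites of Irf8 had Rad21 in at least 1 CTCF-degron list, 3 of them in all.

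Bach2 encodes a repressor that restrains plasma-cell differentiation, and had 20 sites in 387 kb, the lowest density. Its +10.7 kb site had CTCF at 10.5, 10.7 and 13.7 in the parental and 4.68, 6.50 and 4.85 in the degron lists, and Rad21 at 9.32, 17.5 and 8.34 against 7.36, 6.85 and 4.49. The sites at +333.5 and +348.0 kb, near the 3′ end, had CTCF between 5.22 and 8.48 and Rad21 between 4.55 and 9.95 in the parental lists, and no peak of either protein in any CTCF-degron list.

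Lef1 encodes an HMG-box factor that mediates Wnt signalling and is expressed in early lymphoid cells. CTCF was lost at all 5 of its CTCF sites (background 69.7%), while degron replicates 1 and 2 had 1 CTCF peak each elsewhere in the window. The +127.5 kb site, downstream of the gene and inside Hadh, had CTCF at 8.15, 7.02 and 10.9 and Rad21 at 19.1, 15.4 and 7.57 in the parental lists, with neither in the CTCF-degron lists. The wide site at the Lef1 start lost CTCF (parental 3.78, 3.31 and 3.87) and kept Rad21 at 5.26, 5.26 and 4.94.

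**Figure D4:**
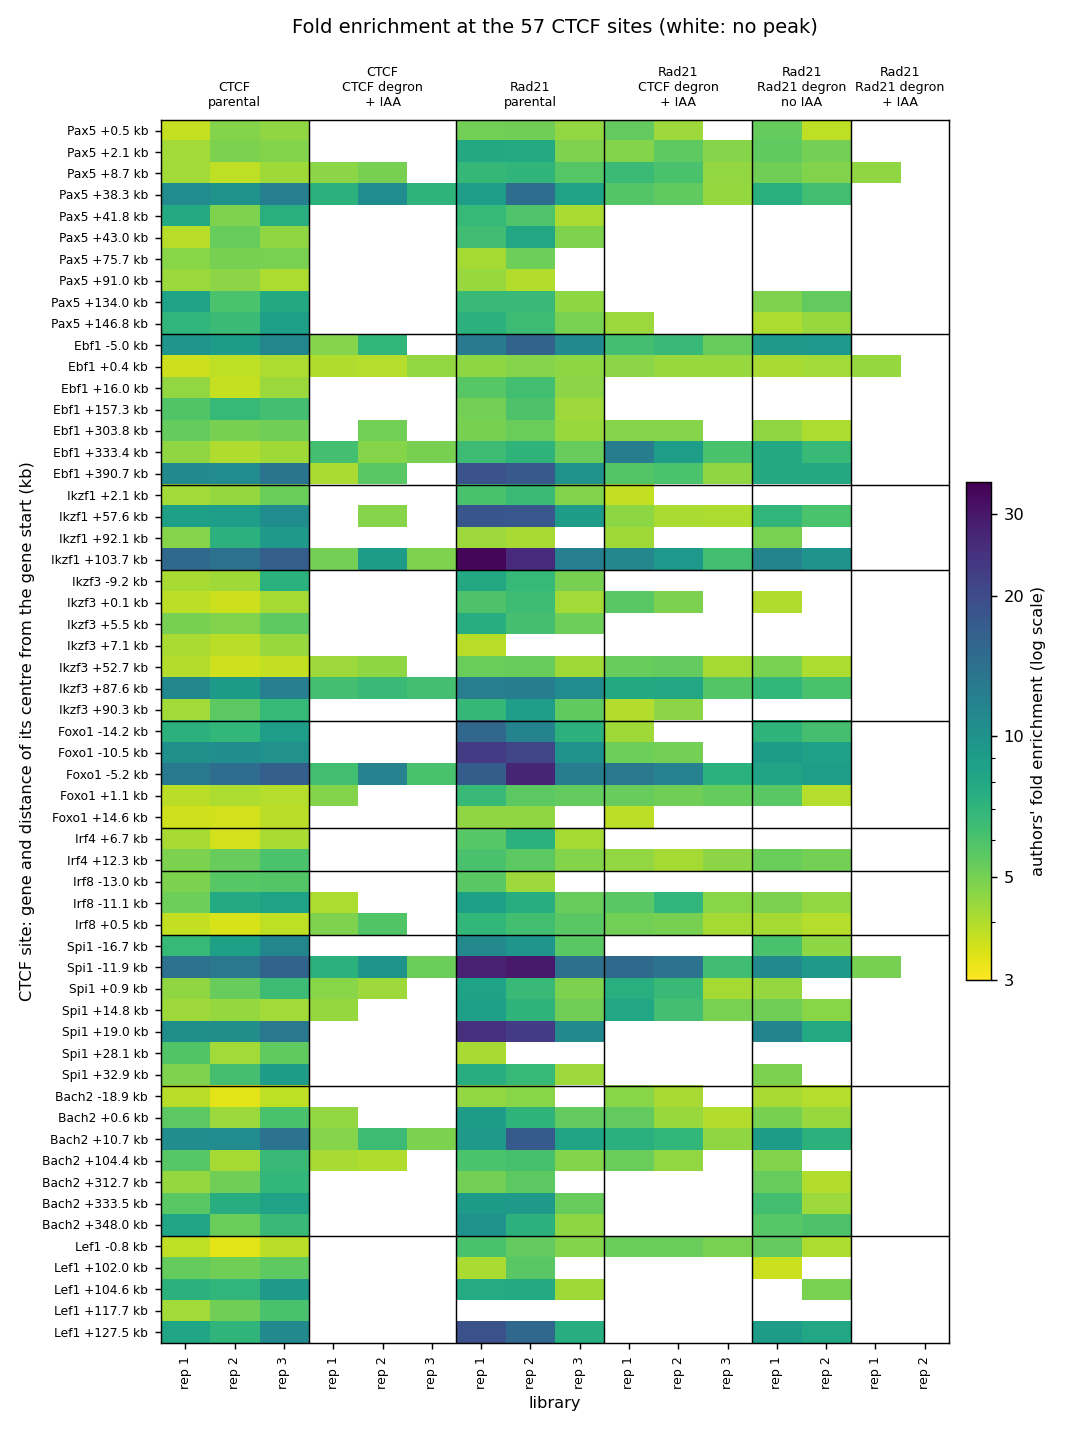
Authors' fold enrichment (colour, log scale) at each of the 57 CTCF sites of the windows (rows, by gene and distance from its start) in the 16 lists (columns, by antibody, line and IAA); white means no peak. In the CTCF-degron CTCF columns 36 rows are white throughout, and in the last 2 columns 3 rows have a peak in replicate 1 and none in replicate 2.

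After degradation of Rad21 itself almost no Rad21 peak was listed at these genes. The Rad21-degron lists without IAA had 111 and 70 peaks in the windows (90.5 ± 29.0, SD, n = 2), and those with IAA had 4 and 0. The groups did not overlap, and the log2 difference, with 1 peak added to each count, was -5.32 (exact permutation p = 0.333, and no smaller value is possible with 2 libraries a group). It was -3.08 with lists shortened to the shortest, -6.48 without IAA replicate 1 and -4.46 without IAA replicate 2. As a share of mouse peaks, the windows held 0.337 and 0.317% without IAA and 0.112 and 0% with IAA, a log2 difference of -1.72 with 1 peak added (exact permutation p = 0.333). Of 51 sites with Rad21 in both lists without IAA, 48 (94.1%, background 92.3%) had no peak with IAA, 3 had one in replicate 1 and 0 had one in both (background 2.06%). All 35 distal sites were among the lost (background 96.1%). The 3 sites were at Pax5 (+8.7 kb, 4.53), at the Ebf1 start (4.43) and at Spi1 (-11.9 kb, 4.96). The fourth peak with IAA was downstream of Irf8 (+28.3 kb, 4.43), where replicate 1 without IAA had 4.13 and replicate 2 none. Both lists with IAA kept many peaks on human spike-in contigs, 5603 and 5481, against 11861 and 14878 without IAA.

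No site of the windows gained a peak in every list of a degraded group while absent from all of its controls, in any of the 3 comparisons. Of all 90337 mouse sites 138 did so for Rad21 after Rad21 degradation, 143 for CTCF and 160 for Rad21 after CTCF degradation. At so small a share, none among 275 sites is near the background. Counting a peak in at least 1 degraded list, 28 of the 275 sites gained Rad21 and 5 gained CTCF after CTCF degradation. None gained Rad21 after Rad21 degradation. Over all mouse sites these numbers were 5930, 3216 and 968. As a wider set, the list of 22 other regulator genes of blood cells, of which the site densities covered 21, had 81 CTCF sites. Of these 45 lost CTCF (55.6%) and 20 kept it (24.7%). Their 103 parental Rad21 sites gave 26 lost (25.2%), 26 in part and 51 kept (49.5%) after CTCF degradation.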

How the data were processed

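The 16 immunoprecipitated libraries have a deposited broadPeak list each; the 8 inputs were not used. Per the labels, the genome used for alignment joins mm9 with another sequence entry, and the submitters' processing notes name Bowtie2 2.2.8 and SAMtools 1.8. The peak caller, its threshold and the use of inputs are not given in the sources used here. In the deposited lists, column 7 is a linear fold enrichment (a ratio), and columns 8 and 9 are -log10 of p and q. Fold enrichments are the authors' and were not tested between lists. Lists hold no read counts, so depth is unknown.

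Peaks on mouse chromosomes were taken, and overlapping peaks (1 bp or more) of all 16 lists were merged into sites. A control site has a peak in every control list; it is lost, kept in part or kept by the degraded lists that overlap it. Genes and starts came from GENCODE vM1, where 9 genes matched by symbol and Spi1 through its RefSeq synonym. Peak ends on the genes' chromosomes lay within the NCBIM37 lengths, unlike chromosome 12, which was left out of position and motif counts. Named sites were, per gene, those within 1 kb of its starts, the CTCF site with the highest mean parental fold enrichment, the strongest Rad21 site without CTCF, and up to 2 CTCF sites kept in every degron list; the others described were chosen after their values were seen. Groups were compared by exact two-sided permutation over libraries of log2 numbers or percents. Because a Rad21-degron list has 0 peaks in the windows, 1 peak was added in that comparison, which was not planned. The genes and lists were chosen with earlier results of these data known. The code was tested on simulated peaks. Python 3.11.15, numpy 2.4.6 and pandas 2.3.3 were used.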

Additional observations from a re-analysis of the deposited data

How the results depend on the processing

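Differences were recalculated 95 times, and 86 kept their direction. The settings were each library left out, stricter q-value, fold enrichment of 4 or more, gene body alone, 50 kb flanks and others. The 95 include 10 for the share of Rad21 peaks on CTCF sites, windows against the rest. That comparison was chosen after its values were seen, and all 10 kept their direction. Replicate blocks are also among the 95, and their differences equal those reported by construction. With lists shortened to the shortest, CTCF peaks in the windows after CTCF degradation gave a log2 difference of 0.31 and Rad21 peaks 0.55, both the other way from the values reported, while Rad21 peaks after Rad21 degradation gave -3.08 (also for their share of the list) and the share of Rad21 peaks on CTCF sites -44.1 percentage points. That share differed by -10.4 points at a fold enrichment of 4 or more. With the spike-in libraries alone, the share of Rad21 peaks in the windows gave -0.10. With CTCF sites of at least 1 parental library, the share of Rad21 peaks on CTCF sites differed by 5.41 percentage points. Leaving out each library in turn gave -0.10 (without CTCF-degron replicate 1) to 0.29 for the share of CTCF peaks in the windows, -0.05 (without CTCF-degron replicate 1) to 0.20 for that of Rad21 after CTCF degradation, -7.88 to 3.23 points for Rad21 peaks on CTCF sites, and -6.48 to -4.46 for Rad21 peaks after Rad21 degradation.

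Lost Rad21 sites after Rad21 degradation numbered 20 at a q-value of 0.001 or less, 6 with shortened lists and 5 with at least 50% of a site covered. Lost CTCF sites numbered 3 with shortened lists, 16 with 50% coverage and 73 for sites of at least 1 control library. Lost Rad21 sites after CTCF degradation numbered 6, 6 and 140 in those 3 settings, and 19 to 32 with each library left out. Merging control peaks alone, added after the data were seen, gave 57, 39 and 19 lost. Without the sites of the replicate 1 Rad21 lists alone, also added later, the median site density was 11.2 per 100 kb. Starts within 2.5 kb gave 59 sites at a start, and the looser motif was present at 28 sites.

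Same-numbered replicates did not deviate together (correlations of -0.17 to 0.11 over sites). With a replicate block the log2 differences must stay the same (-1.88, -0.80 and -5.32). The exact sign-flip test then gave p = 0.25, 0.25 and 0.5, the smallest values possible with 3 or 2 pairs, so it decides nothing. With 2 or 3 libraries a group, and no depths, absence of a peak means only that none was listed.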
